A study of Mus musculus with 2 samples.

Results

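Among the brown adipocyte nuclei collected 4 days after cold, 381 held at least 1 transcript of Acly, Fasn or Scd1, and these lipogenic transcript-positive nuclei are described here. They were 381 of 925 adipocyte nuclei of the post-cold library (41.2%), of 4321 barcodes in that library and of 6872 in the series. The members were chosen by their own readout, in 2 steps. Barcodes had to hold 200 or more genes and a mitochondrially encoded share below 5% of their UMIs, a UMI being a molecular identifier that counts each captured molecule once. Of these, a nucleus counted as an adipocyte when it held at least 4 UMIs summed over Pparg, Ppara, Acsl1, Pde3b, Lipe, Plin1, Acvr1c and Cidea, and more of them than of 8 genes of other cell types (Pdgfra, Dcn, Lama2, Ptprb, Flt1, Mrc1, F13a1 and Ttn). L is the sum of Acly, Fasn and Scd1 UMIs. Members had an L of 1 or more, and the other 544 adipocyte nuclei, with an L of 0, served as the comparison.

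The study profiled brown adipose tissue of C57BL/6 mice by single-nucleus RNA sequencing, with 1 library per condition. The library named 1cyc came from 5 mice whose tissue was taken 4 days after 1 acute, transient spell of cold. The library named TN came from 5 mice at thermoneutrality, where body temperature is held without added heat production. Both groups carried the same C57BL/6 genotype, with no allele or agent other than temperature in the labels. Nuclei of the 5 mice were pooled before loading, so that neither a mouse nor a replicate can be read from the data, and the effect of cold cannot be told apart from a difference between libraries.

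Brown adipocytes burn fatty acids to make heat and also build new ones from glucose and acetate. In that pathway Acly (ATP citrate lyase) splits citrate into cytosolic acetyl-CoA, acetyl-CoA carboxylase turns acetyl-CoA into malonyl-CoA, Fasn (fatty acid synthase) assembles palmitate with NADPH as reductant, and Scd1 (stearoyl-CoA desaturase) puts a double bond into the product. De novo lipogenesis in brown fat is known to be raised by cold in mice and to run in the same tissue as fatty acid oxidation.

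The adipocyte label was checked against markers that took no part in the choice. In the 375 members with a depth-matched partner, Cd36 (a fatty acid transporter) had 730 UMIs in 270 nuclei and Adipoq (adiponectin) 62 UMIs in 58 nuclei. The brown fat uncoupler Ucp1 was found in 91 of the 381 members (23.9%). Pparg, one of the genes that chose the nuclei, was found in 346 of the 375. Markers of other cell types, counted without the 8 genes that took part in the choice, were low: 45 UMIs over 10 fibroblast or progenitor markers (Pi16 and Cd34 at 0), 58 over 8 endothelial markers (Kdr and Vwf at 0), 34 over 8 macrophage markers (Cd163, Adgre1, Lyz2 and Cd74 at 0) and 15 over 10 T, NK or B cell markers (Cd3e, Cd3g, Nkg7 and Ms4a1 at 0). Skeletal muscle markers had 89 UMIs over 9 genes, with 7 of them at 0, among these Ryr1, Myh4, Myh1, Myh2 and Ckm.

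The 2 libraries shared 6 barcodes, 1 of which was a 1cyc member and an adipocyte nucleus in TN as well. Doublet calls fell on 9 of 1065 1cyc nuclei past the filters, 2 of them members. The value of each main result without these barcodes or without the doublet calls stayed within its counting interval or within 1.5 times its count.

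Most members held little of what defined them. An L of 1 was found in 233 members (61.2%), of 2 in 97, of 3 in 28, of 4 in 13, of 5 in 8, and of 6 and 7 in 1 nucleus each. Nuclei just inside the threshold, with an L of 1, had a median of 977 UMIs, and those just outside it, with an L of 0, a median of 827.5 UMIs. At the other limits, 7 members had the lowest allowed adipocyte sum of 4 and 7 lipogenic-positive nuclei stood outside with a sum of 3. There were 33 members with a mitochondrial share of 4 to 5% and 11 lipogenic-positive nuclei just outside, with 5 to 6%.

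Acly was the gene most often seen. It had 320 UMIs in 237 of the 925 1cyc adipocyte nuclei, which is 325 CPM (counts per 1000000 UMIs of the sum). Scd1 had 213 UMIs in 162 nuclei (216 CPM) and Fasn 83 UMIs in 73 nuclei (84.2 CPM). The genes were mostly found one at a time: 168 members held Acly alone, 97 Scd1 alone and 33 Fasn alone, and 83 held more than 1 of them. Of those 83, 43 held Acly with Scd1, 18 Acly with Fasn, 14 Fasn with Scd1 and 8 all 3. Acly lies at chr11:100476353-100528000 and Fasn at chr11:120805846-120824547, both on the minus strand, and Scd1 at chr19:44394455-44407879, also on the minus strand (GENCODE M21 annotation of mm10).

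In TN adipocyte nuclei chosen in the same way, 202 of 1077 had an L of 1 or more (18.8%). The exact Clopper-Pearson 95% interval was 38.0 to 44.4% in 1cyc and 16.5 to 21.2% in TN. All intervals here cover counting error within a library and hold nothing of the spread between mice or preparations. Intervals for CPM and for ratios of CPM treat UMIs as independent, so they leave out the spread between nuclei as well. In TN, Acly had 136 UMIs in 123 nuclei (119 CPM), Scd1 86 UMIs in 72 nuclei (75.4 CPM) and Fasn 16 UMIs in 16 nuclei (14.0 CPM), so that all 3 genes were lower in TN. An L above 3 was not found in TN, where 170 of the 202 nuclei had an L of 1, 28 of 2 and 4 of 3.

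The share with a lipogenic transcript depended on depth. In 1cyc it was 27.0% in adipocyte nuclei under 500 UMIs, 34.7% from 500 to 750, 37.7% from 750 to 1000, 45.0% from 1000 to 1500 and 57.0% from 1500 upward. In TN, where no deposited nucleus was below 500 UMIs, it was 12, 22, 18.9 and 28.5% over the same upper 4 ranges. Thinned to 500 UMIs per nucleus, the expected share was 25.3% in 1cyc (784 nuclei, with 141 shallower ones left out) and 10.4% in TN (1077 nuclei, none left out). The 1cyc share was above the TN share in each of the 4 ranges.

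**Figure D1:**
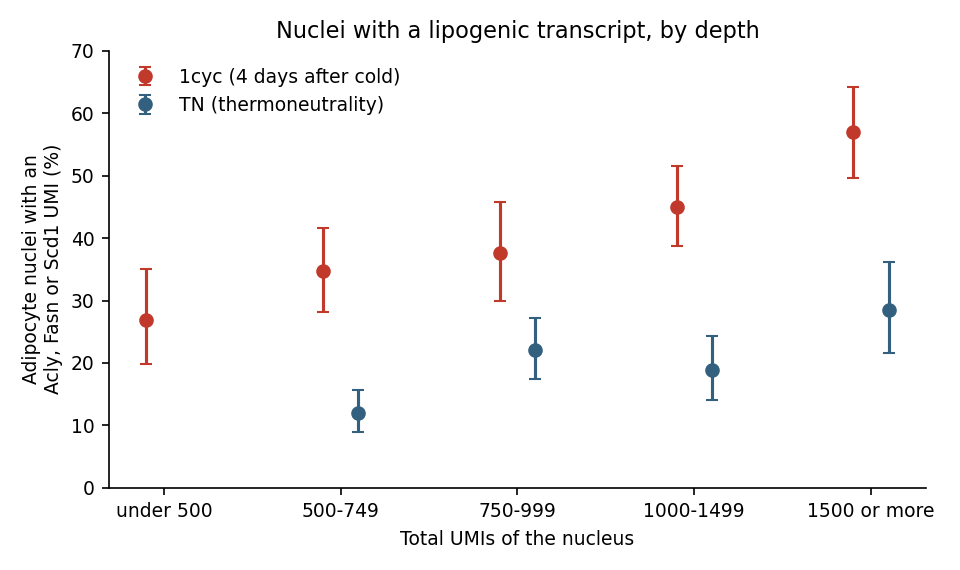
Share of adipocyte nuclei with an Acly, Fasn or Scd1 UMI (vertical axis, %) by total UMIs of the nucleus (horizontal axis) in 1cyc (red) and TN (blue). Points are shares and bars are exact 95% Clopper-Pearson intervals. The share was 57.0% in 1cyc and 28.5% in TN among nuclei with 1500 UMIs or more.

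Free RNA in droplets can give a UMI to a nucleus that does not express the gene. Nuclei with at least 4 UMIs of the 8 other cell type genes, and more of these than of the adipocyte genes, gave a measure of it. In 1cyc, 5 of 59 such nuclei had an L of 1 or more (8.47%, interval 2.81 to 18.7%) at a median of 1246 UMIs, and in TN 10 of 132 (7.58%, interval 3.69 to 13.5%) at a median of 1363 UMIs. The adipocyte shares of 41.2% and 18.8% were reached at lower medians, of 943 UMIs in 1cyc and 857 UMIs in TN. After thinning, the non-adipocyte share was 1.82% in 1cyc and 2.87% in TN. How many of the members with an L of 1 owe it to free RNA was not tested.

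In 1cyc each of the 3 defining genes was found more often in nuclei that held either of the other 2 than in nuclei of like depth that held neither, so that the gene read took no part in the choice. Fasn was found in 11.6% of the 345 nuclei with Acly or Scd1 and in 5.51% of their partners, a CPM ratio of 2.39 (interval 1.39 to 4.24). Scd1 was found in 23.0% of the 283 nuclei with Acly or Fasn and in 13.4% of their partners, a ratio of 1.79 (1.25 to 2.57). Acly was found in 32.4% of the 213 nuclei with Fasn or Scd1 and in 24.4% of their partners, a ratio of 1.41 (1.03 to 1.94). In TN the ratio was 0.777 (0.246 to 2.34) for Acly and 0.571 (0.207 to 1.46) for Scd1, both with intervals that span 1, and Fasn had 5 UMIs in the chosen nuclei and 2 in their partners. The difference between the libraries was not tested.

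For all other genes, 375 of the 381 members were paired 1 to 1 with L = 0 nuclei of the same library whose total UMIs differed by at most 10%. The other 6 members, with 1686 to 3487 UMIs, found no partner. Median depth was 1078 UMIs in paired members and 1073 in their partners, and the sums were 447146 and 423961 UMIs. The median mitochondrial share was 1.77% in members and 2.0% in their partners. UMIs of the 8 adipocyte genes per 1000000 were 19007 in members and 17476 in partners, and those of the 8 genes of other cell types 96.2 and 165. Each ratio below is CPM in members over CPM in their partners, with an exact conditional binomial interval. Since all nuclei come from 1 pooled library and nuclei are not replicates, no test was made, and a gene was called by how large its ratio was.

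Most genes did not stand apart. Of the 1713 genes that reached 100 UMIs when both sums were added, 80.4% lay within 1.25-fold of equality and the median ratio was 0.990. A ratio of 1.5 or more was found for 33 genes (1.93% of those measured), and 29 genes (1.69%) were lower in members by the same fold. Scaled by median of ratios instead of by total UMIs, the same counts were 50 higher and 14 lower. Past 2-fold there was 1 gene in each direction, Acss2 among those higher and Slit3 among those lower. In TN, 11 of 793 genes were higher by that fold in the nuclei with an L of 1 or more (1.39%) and 9 were lower by it (1.13%). Of 786 genes measured in both libraries, none was called in the same direction in both. The 1cyc calls numbered 2 higher and 3 lower among these 786, and the TN calls 11 higher and 8 lower.

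Ranked by the interval bound nearest to 1, Acss2, Acaca and Pnpla3 came first among the genes higher in 1cyc members. By the ratio itself Acss2 also came first among the 12 named. Cdc42, Akap8l, Ldha and Ganc then stood above Pnpla3 and Acaca. Acss2, which makes acetyl-CoA from acetate and so supplies the same pool as Acly, had 514 CPM in members and 252 CPM in their partners (230 and 107 UMIs), a ratio of 2.04 (1.61 to 2.59). Acaca, which encodes acetyl-CoA carboxylase 1 and so acts between Acly and Fasn, had 2845 CPM in members and 1835 CPM in partners, a ratio of 1.55 (1.42 to 1.70). The member held more Acaca UMIs in 201 pairs, fewer in 97 and the same number in 77. Acaca was found in 83.2% of members and 72.3% of partners. Pnpla3, which encodes a lipid droplet protein and is a known target of lipogenic transcription factors, had 467 CPM in members and 262 CPM in partners, a ratio of 1.79 (1.41 to 2.27). In TN the ratio was 0.97 for Acss2 (0.610 to 1.55), 1.16 for Acaca (0.993 to 1.35) and 1.5 for Pnpla3 (0.795 to 2.89), each interval spanning 1. The 3 genes were named for their interval bounds in 1cyc, so an interval above 1 there was set by that choice. Their TN sums also hold fewer UMIs, and the difference between the libraries was not tested. Of the named genes, Acaca, Tkt, Neat1, Slit3, Zeb2, Osbpl11, Tgfbr3 and Fam13a reached 100 UMIs in TN, and the TN ratios given for the others, as for Ucp1, rest on fewer.

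The fatty acid synthesis list that holds Acaca, Acss2 and Pnpla3 went the same way, less far. The list holds 18 genes besides the 3 that chose the members, and 7 of them were measured. All 7 had a ratio above 1, with a median of 1.35, and 3 were at least 1.5-fold higher (Acaca, Acss2 and Pnpla3). Thrsp, a lipogenic regulator, had a ratio of 1.35 (1.04 to 1.74). Mlxipl, the carbohydrate-responsive transcription factor ChREBP, had a ratio of 1.27 (1.10 to 1.48). The elongase Elovl6 had 1.15 (0.962 to 1.37) and Acacb, the mitochondrial carboxylase that restrains fatty acid oxidation, 1.03 (0.932 to 1.13), with both intervals spanning 1. Srebf1, the sterol-regulated transcription factor of lipogenesis, was under the 100 UMI limit, with 43 UMIs in members and 21 in partners. Summed over the list, members had 8132 CPM and partners 6154 CPM, a ratio of 1.32 (1.26 to 1.39). This sum includes Acaca, Acss2 and Pnpla3, and Acaca held 1272 of its 3636 UMIs in members and 778 of its 2609 in partners. It is therefore not separate from the ratios of those genes. In TN the summed ratio was 1.07 (0.987 to 1.16), with 4 of 5 measured genes above 1 and none past 1.5-fold.

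The promoters of the 2 defining genes on chromosome 11 and of the 2 genes with the highest ratios among the other synthesis genes are shown. Each runs from 250 bases before to 50 bases after the listed start, 5′ to 3′ on the gene's strand (RefSeq, GRCm38.p6), with capitals for the motifs CCAAT and GGGCGG on either strand, which may overlap.
Acly, chr11:100527951-100528250, minus strand: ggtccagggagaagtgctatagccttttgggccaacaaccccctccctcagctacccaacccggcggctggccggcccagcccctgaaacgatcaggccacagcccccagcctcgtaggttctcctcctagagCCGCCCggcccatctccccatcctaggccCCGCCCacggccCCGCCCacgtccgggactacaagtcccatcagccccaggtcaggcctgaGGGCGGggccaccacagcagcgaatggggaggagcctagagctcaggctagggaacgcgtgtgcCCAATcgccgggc
Fasn, chr11:120824498-120824797, minus strand: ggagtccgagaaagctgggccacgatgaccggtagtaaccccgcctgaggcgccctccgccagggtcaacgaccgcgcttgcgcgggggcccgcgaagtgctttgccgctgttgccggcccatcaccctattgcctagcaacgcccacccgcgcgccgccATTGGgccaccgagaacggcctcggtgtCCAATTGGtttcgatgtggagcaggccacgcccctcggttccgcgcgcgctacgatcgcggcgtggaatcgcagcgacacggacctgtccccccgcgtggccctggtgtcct
Acss2, chr2:155517793-155518092, plus strand: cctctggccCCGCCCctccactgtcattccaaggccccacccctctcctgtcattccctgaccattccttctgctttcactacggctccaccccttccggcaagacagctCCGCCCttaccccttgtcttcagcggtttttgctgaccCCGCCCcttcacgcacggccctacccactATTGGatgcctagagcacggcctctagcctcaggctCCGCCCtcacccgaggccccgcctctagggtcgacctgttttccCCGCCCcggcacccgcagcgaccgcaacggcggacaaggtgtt
Pnpla3, chr15:84167566-84167865, plus strand: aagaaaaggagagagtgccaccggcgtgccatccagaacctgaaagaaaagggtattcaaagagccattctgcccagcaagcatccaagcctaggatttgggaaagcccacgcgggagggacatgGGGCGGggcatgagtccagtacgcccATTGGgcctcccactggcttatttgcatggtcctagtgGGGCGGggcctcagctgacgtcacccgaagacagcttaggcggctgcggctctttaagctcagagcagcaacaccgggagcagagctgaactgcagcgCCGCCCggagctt
CCAAT is the box bound by the factor NF-Y, and GGGCGG the box bound by Sp1. CCAAT occurred 1 time in the windows of Acly, Acss2 and Pnpla3 and 3 times in that of Fasn, and GGGCGG 4 times in Acly, 5 in Acss2, 3 in Pnpla3 and 0 times in Fasn. The window at the listed start of Acaca, chr11:84195188-84195487, held none of the motifs searched. It lies inside the gene, which starts at 84129672 in GENCODE M21, so it says nothing of the promoter at that start. CACGTG, the core of the E-box, and TCACNCCAC, a sterol response element sequence, were found in none of these 5 windows. CCAAT was in 16 of the 30 genes at least 1.5-fold higher that have a listed promoter (53.3%) and in 7 of the 26 lower ones (26.9%), against 39.0% of 1325 genes measured and 37.4% of all 32851 promoters. GGGCGG was in 70% of the higher and 84.6% of the lower genes, against 77.1% of those measured and 35.7% of all promoters. CACGTG was in 26.7% of the higher and 26.9% of the lower genes, against 12.5% of those measured and 7.15% of all. TCACNCCAC was in 3 of the 30 higher genes and in 0 of the 26 lower ones, against 2.04% of those measured and 1.24% of all. These are letter matches and say nothing of binding.

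Tkt, and the summed lists of pentose phosphate and NADPH genes and of glycolysis genes, were also higher in members. Tkt, the transketolase of the pentose phosphate pathway, had 1022 CPM in members and 701 CPM in partners, a ratio of 1.46 (1.26 to 1.69), against 0.87 in TN (0.625 to 1.20). It was the only gene of its 10-gene list with enough UMIs to be measured. Idh1, the cytosolic isocitrate dehydrogenase that makes NADPH, had 50 UMIs in members and 20 in partners. Summed over the list the ratio was 1.33 (1.18 to 1.5) in 1cyc and 0.986 (0.787 to 1.23) in TN. Tkt held 457 of the 653 UMIs of the 1cyc sum in members and 297 of the 465 in partners. The summed ratio thus rests largely on Tkt and does not show a rise of NADPH-making enzymes as a group. Of 13 measured genes for glucose uptake and glycolysis, 2 were at least 1.5-fold higher and none lower, and 11 were above 1. These were Ldha (lactate dehydrogenase A), with 177 CPM in members and 96.7 CPM in partners and a ratio of 1.83 (1.24 to 2.73), and Pkm (pyruvate kinase), with a ratio of 1.53 (1.13 to 2.08). Pfkfb3 and Pcx were the 2 genes below 1, with ratios of 0.954 and 0.978. Summed, the glycolysis list had a ratio of 1.16 (1.08 to 1.24) in 1cyc and 1.01 (0.912 to 1.12) in TN.

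Glycogen genes had a summed ratio of 1.23 (1.13 to 1.33) in 1cyc and 1.05 (0.922 to 1.20) in TN. Pygl, a glycogen phosphorylase, had 344 CPM in members and 212 CPM in partners, a ratio of 1.62 (1.24 to 2.13). Ppp1r3b, which targets a phosphatase to glycogen and so favours its synthesis, had a ratio of 1.55 (1.16 to 2.06). Gbe1, the branching enzyme, had 1.33 (1.14 to 1.54), and the synthase Gys1 had 0.975 (0.788 to 1.21). Genes of glycogen breakdown and of its synthesis were thus both among those higher.

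Genes of triglyceride assembly, lipid droplets and fatty acid oxidation had summed ratios between 1.10 and 1.17. General adipocyte markers differed by a like amount. The 10 of them, 8 used in the choice, had a summed ratio of 1.10 (1.06 to 1.13) in 1cyc. Cd36 and Adipoq, the 2 outside the choice, had 1.21 (1.09 to 1.35) in 1cyc and 0.993 (0.863 to 1.14) in TN. Of 13 measured genes of fatty acid uptake and triglyceride synthesis none was past 1.5-fold, 12 were above 1, and the summed ratio was 1.13 (1.08 to 1.18) in 1cyc and 0.979 (0.918 to 1.04) in TN. The highest there were Gpd2 and Gpd1, which link glycolysis to glycerol 3-phosphate, with ratios of 1.31 (1.06 to 1.62) and 1.27 (1.08 to 1.5). Slc27a1, a fatty acid transporter, was the 1 gene below 1, with 0.772 (0.566 to 1.05). Of 8 measured genes of lipolysis and lipid droplets 1 was called, the droplet coat gene Plin4, with 1.53 (1.04 to 2.28), and the coat gene Plin2 had 1.46 (1.15 to 1.86). Summed, that list had 1.17 (1.10 to 1.24) in 1cyc and 1.09 (0.990 to 1.20) in TN. Of 13 measured fatty acid oxidation genes 1 was called, the peroxisomal enzyme Ehhadh, with 1.69 (1.14 to 2.54). The summed oxidation ratio was 1.10 (1.03 to 1.16) in 1cyc and 1.08 (0.989 to 1.19) in TN.

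Thermogenic genes summed as a list did not stand apart in 1cyc. None of 11 measured genes was past 1.5-fold, 7 were above 1 and 4 below, and the median ratio was 1.08. Summed, members had 12307 CPM against 12039 CPM in their partners, a ratio of 1.02 (0.984 to 1.06). The sum leans on a few genes. Over all 381 members Esrrg held 1309 and Ppargc1b 1132 of its 5656 UMIs, and Ucp1 149. Ucp1 itself had 324 CPM in members and 229 CPM in partners, a ratio of 1.42 (1.09 to 1.85), with the member higher in 80 pairs, lower in 60 and tied in 235. Ppargc1b, a coactivator of mitochondrial genes, had 1.15 (1.05 to 1.26). Ppargc1a, its better known relative, had 0.892 (0.694 to 1.15), the brown fat regulator Prdm16 0.837 (0.681 to 1.03) and the nuclear receptor gene Esrrg 0.922 (0.853 to 0.997). In TN the same list had a summed ratio of 1.13 (1.06 to 1.19), and Ucp1 1.84 (1.02 to 3.4). Nuclear-encoded electron transport genes had a summed ratio of 1.01 (0.905 to 1.12) in 1cyc and 1.15 (0.980 to 1.36) in TN, with 1 of 8 measured genes called (Sdhb, 1.52).

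**Figure D2:**
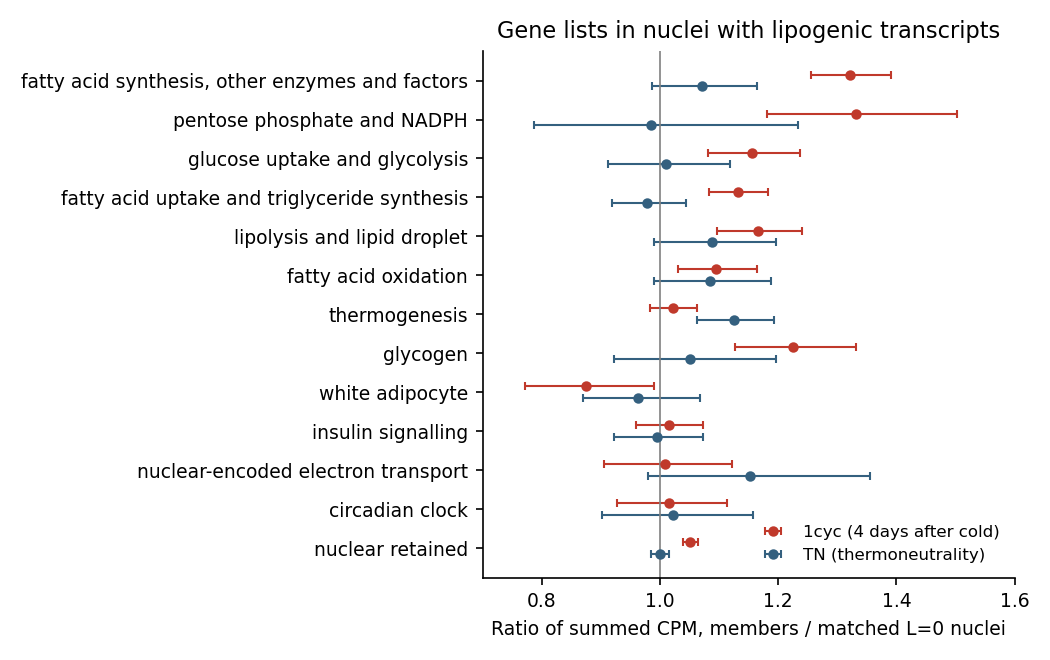
Ratio of summed CPM, members over depth-matched L = 0 nuclei (horizontal axis), for 13 gene lists (rows) in 1cyc (red) and TN (blue), with 95% intervals for counting error. The fatty acid synthesis list, with Acaca, Acss2 and Pnpla3 in it, stood at 1.32 and the thermogenesis list at 1.02 in 1cyc.

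Insulin signalling genes had a summed ratio of 1.01 (0.959 to 1.07) in 1cyc and 0.995 (0.923 to 1.07) in TN. Of the 13 measured in 1cyc, 1 was called, Irs2, an insulin receptor substrate, with 168 CPM in members and 101 CPM in partners and a ratio of 1.65 (1.12 to 2.47). Circadian clock genes had a summed ratio of 1.02 (0.927 to 1.11). The nuclear retained RNAs had 1.05 (1.04 to 1.06) in 1cyc, most of it Malat1, with a ratio of 1.05, and 1.00 (0.985 to 1.02) in TN. Stress and immediate early genes had 64 UMIs in members and 55 in their partners.

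Of the other named genes higher in 1cyc members, Neat1 is on the list of nuclear retained RNAs and the rest are on none of these lists. Neat1, the RNA scaffold of nuclear paraspeckles, had 2592 CPM in members and 1908 CPM in partners, a ratio of 1.36 (1.24 to 1.49). Cdc42 (a small GTPase) had 1.95, Akap8l (a nuclear A-kinase anchor protein relative) 1.90, Ganc (a neutral alpha-glucosidase) 1.79, Lyst (a lysosomal trafficking regulator) 1.78 and Aff4 (part of the elongation complex of RNA polymerase II) 1.77. These 5 rest on 68 to 111 UMIs in members and 33 to 59 in partners, so that their intervals are wide: 1.27 to 3.06 for Cdc42 and 1.26 to 2.52 for Aff4. In TN the ratios were 0.97 for Neat1, 0.93 for Cdc42, 0.85 for Akap8l, 1.46 for Ganc, 1.21 for Lyst and 1.44 for Aff4, with all 6 intervals spanning 1.

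Among the genes lower in members, Slit3, a secreted ligand of Robo receptors, was lowest. It had 165 CPM in members and 359 CPM in partners, a ratio of 0.46 (0.345 to 0.613), and was found in 31 members and 61 partners. Its highest count in 1 nucleus was 14 UMIs among members and 15 among partners. With members taken as all nuclei that held Scd1 the Slit3 ratio was 0.898, and in nuclei that held Scd1 and neither of the others it was 1.30 (0.804 to 2.11). Zeb2 (a zinc finger transcription factor) had a ratio of 0.67 (0.564 to 0.794) and Tgfbr3 (betaglycan, a TGF-beta coreceptor) 0.72 (0.594 to 0.881). Fam13a had 3974 CPM in members and 4772 CPM in partners, a ratio of 0.83 (0.781 to 0.888). The others were Slc30a9 (a zinc transporter) at 0.53, Bzw2 and Abhd6 (a monoacylglycerol lipase) at 0.56, Itsn2 (an endocytic scaffold) at 0.58, Gab1 (a docking protein of growth factor receptors) at 0.60, R3hdm2 at 0.62, Pkn2 (a protein kinase) at 0.63 and Osbpl11 (an oxysterol-binding protein relative) at 0.67. In TN the interval lay under 1 for Slit3, at 0.82 (0.667 to 0.999), lay above 1 for Bzw2, at 1.92 (1.16 to 3.24), and spanned 1 for the other 10.

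Levels of several other cell type markers moved with this comparison, and so did those of adipocyte markers. Cd36 and Adipoq, the 2 adipocyte markers outside the choice, had 792 UMIs in members and 620 in partners. Without the genes that took part in the choice, fibroblast or progenitor markers had 45 UMIs in members and 79 in partners, endothelial markers 58 and 91, pericyte markers 25 and 40, and smooth muscle markers 5 and 15. Macrophage markers had 34 and 26 UMIs, T, NK or B cell markers 15 and 11, and mast cell markers 67 and 47, of which 66 and 46 were Kit. Muscle markers had 89 and 107 UMIs, Schwann or neural markers 42 and 38, mesothelial markers 1 and 0, and erythroid genes 97 and 106. Summed CPM of the 10 fibroblast or progenitor markers was 101 in members and 186 in partners, and of the 8 endothelial markers 130 and 215. Their part in the lower genes, Slit3 and Zeb2 among them, was not tested.

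**Figure D3:**
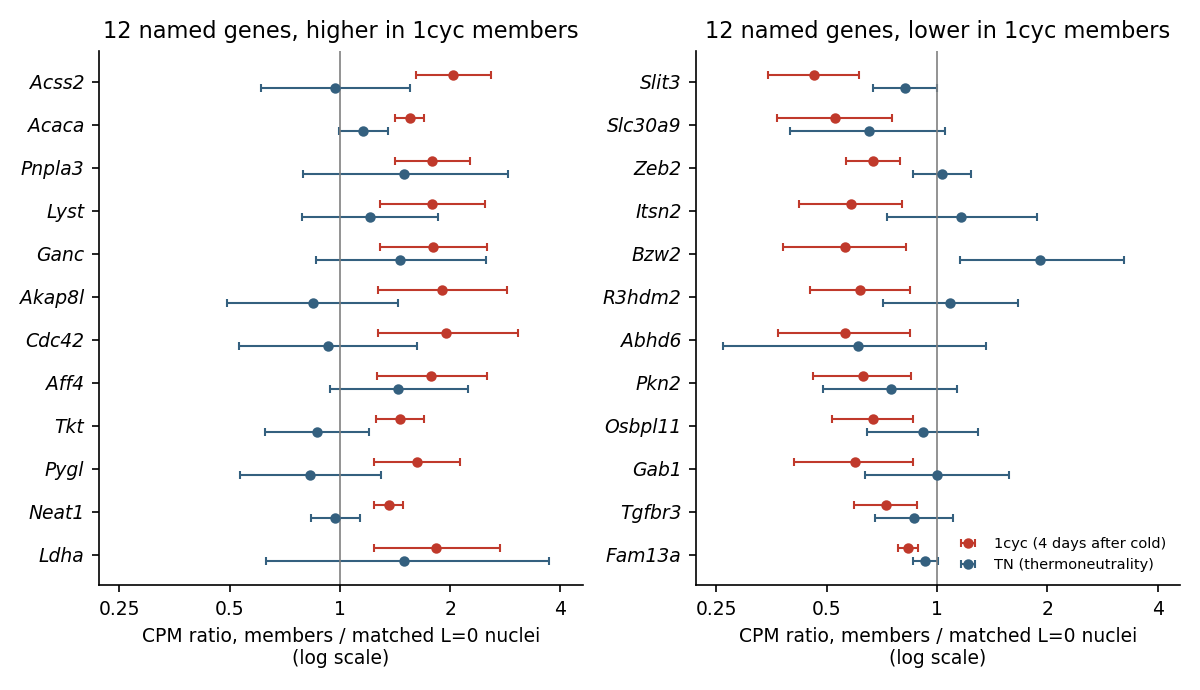
CPM ratio of members over depth-matched L = 0 nuclei (horizontal log axis) for the 12 named genes higher (left) and the 12 lower (right) in 1cyc, in 1cyc (red) and TN (blue), with 95% intervals for counting error. Acss2 stood at 2.04 in 1cyc and 0.97 in TN, and Slit3 at 0.46 in 1cyc and 0.82 in TN.

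Acaca, Acss2 and Pnpla3, and the synthesis genes as a sum, stood highest in the members with most of the defining transcripts. Members with an L of 1, of 2, and of 3 or more were each paired anew with L = 0 nuclei. Acaca had a ratio of 1.34 (1.19 to 1.52) at an L of 1, 1.80 (1.53 to 2.13) at 2, and 2.59 (2.10 to 3.23) at 3 or more. The intervals of the lowest and the highest class did not overlap, but they leave out the spread between nuclei. In these classes Acaca had 2398, 3148 and 3864 CPM in members, and 1784, 1747 and 1489 CPM in their partners. For an L of 1, of 2, and of 3 or more, Tkt had 1.34, 1.56 and 2.10, Pygl 1.44, 1.80 and 2.65, and Pnpla3 1.79, 1.85 and 3.25. Acss2 had 1.81, 1.49 and 2.77, and so was lowest at 2. For these 4 genes the intervals of neighbouring classes overlapped. The synthesis list summed, with Acaca, Acss2 and Pnpla3 in the sum, had 1.23 (1.15 to 1.32), 1.28 (1.16 to 1.40) and 1.71 (1.53 to 1.92). At 3 or more, Acaca held 313 of the 818 UMIs of that sum in members and 120 of the 475 in partners. The order of the sums is thus not separate from that of these genes.

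Elovl6, Mlxipl and the thermogenesis list were not highest in that class. Elovl6 had 1.09 at an L of 1, 0.884 at 2 and 1.04 at 3 or more, Mlxipl 1.20, 1.10 and 1.19, and the thermogenesis list 1.02, 1.03 and 0.952. Ucp1 had 1.32, 1.29 and 1.16, each interval spanning 1. The 51 members with an L of 3 or more had a median of 1600 UMIs and their partners were chosen for the same depth. The median mitochondrial share was 2.02% in members with an L of 1 and 2.10% in their partners, 1.49% and 1.87% at 2, and 1.22% and 1.15% at 3 or more. Its part in the order of the classes was not tested. In TN, with 170 nuclei at an L of 1 and 32 at 2 or more, Acaca had 1.26 (1.06 to 1.5) and 0.998 (0.697 to 1.43), and the synthesis genes summed 1.15 (1.05 to 1.26) and 0.833 (0.685 to 1.01).

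**Figure D4:**
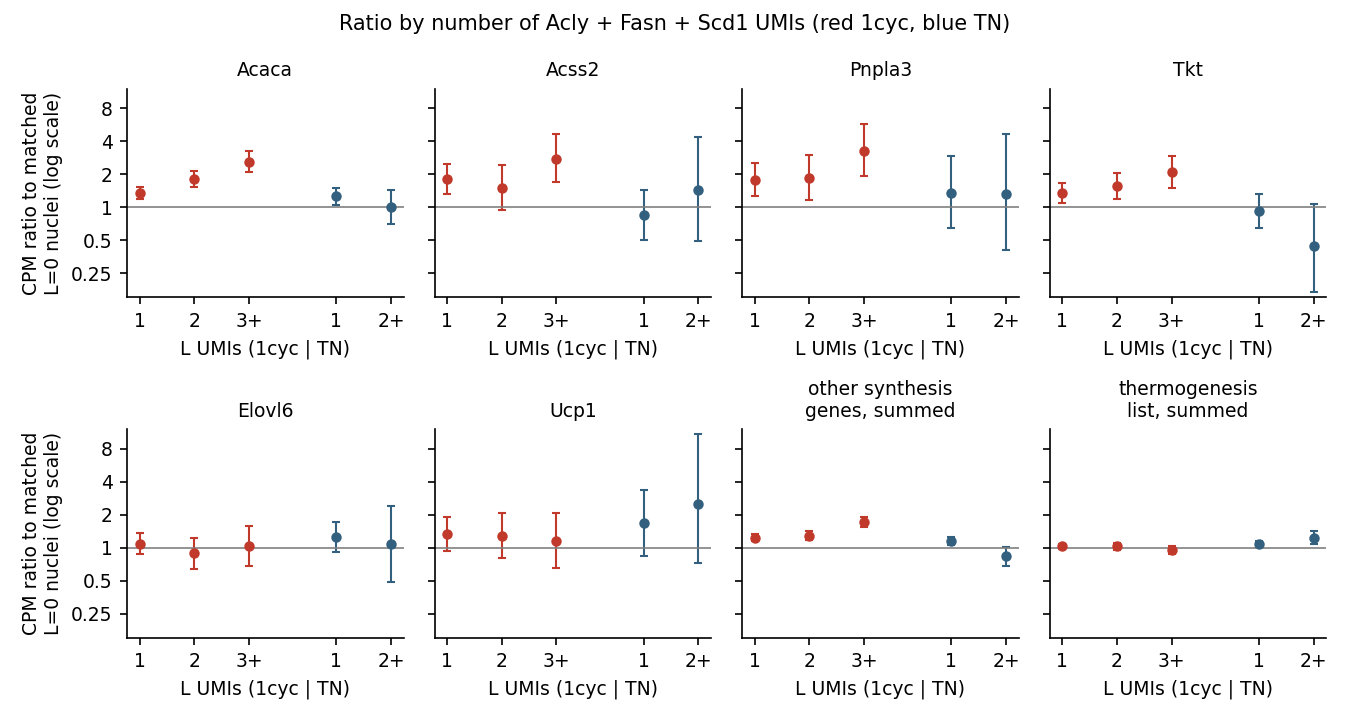
CPM ratio to depth-matched L = 0 nuclei (vertical log axis) by the number of Acly, Fasn and Scd1 UMIs in the nucleus (horizontal axis), for 6 genes and 2 summed lists, in 1cyc (red) and TN (blue), with 95% intervals for counting error. In 1cyc Acaca stood at 1.34, 1.80 and 2.59, and the thermogenesis list at 1.02, 1.03 and 0.952.

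The members also differed by which transcript they held. The 83 members with more than 1 of the 3 genes had Acaca at 3832 CPM and 1575 CPM in their own partners, a ratio of 2.43 (2.04 to 2.92), and Pnpla3 at 651 and 179 CPM, a ratio of 3.63 (2.19 to 6.29). These partners were low: Pnpla3 had 20 UMIs in them, and all 544 L = 0 nuclei had Pnpla3 at 283 CPM and Acaca at 1852 CPM. In the 83 members Acss2 had a ratio of 2.88, Tkt 1.93 and Pygl 2.40, while Ppargc1a had 0.531 (0.309 to 0.890). Nuclei with Acly alone had Acaca at 1.53 (1.34 to 1.75) and Pnpla3 at 1.23 (0.834 to 1.81). Nuclei with Scd1 alone had Acaca at 1.36 (1.11 to 1.68), Pnpla3 at 2.10 (1.32 to 3.41) and Acss2 at 2.28 (1.39 to 3.85). The 33 nuclei with Fasn alone had Acaca at 1.36 (0.992 to 1.86) and Acss2 at 2.50 (1.16 to 5.83).

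The summed white adipocyte genes differed between these groups, as did their member Nnat (neuronatin). Over all pairs the white adipocyte list had 1109 CPM in members and 1269 CPM in partners, a ratio of 0.874 (0.772 to 0.989). With all nuclei that held Acly the ratio was 0.518 and with all that held Scd1 it was 1.36, so that its direction depended on the gene that chose the members. Nnat had 9 UMIs in nuclei with Acly alone and 80 in their partners, 89 in nuclei with Scd1 alone and 17 in their partners, and 28 in nuclei with Fasn alone and 20 in their partners. The share of nuclei with Nnat was close in 1cyc, at 7 of 168 with Acly alone (4.17%) and 4 of 97 with Scd1 alone (4.12%). Few nuclei made up the sums: 88 of the 89 UMIs lay in 3 nuclei with Scd1 alone, and 27 of the 28 in 1 nucleus with Fasn alone. Of the 83 nuclei with more than 1 gene, 0 held Nnat. That allows a share of up to 3.61% of nuclei by the limit of 3 counts and 4.35% by the exact interval. Among L = 0 nuclei 31 of 544 held it (5.70%, interval 3.90 to 7.99%), and the exact intervals overlap. In TN, Nnat was in 11 of 64 nuclei with Scd1 alone (17.2%), in 6 of 118 with Acly alone (5.08%) and in 124 of 875 L = 0 nuclei (14.2%). Slit3 had 9 UMIs in 1cyc nuclei with Acly alone and 77 in their partners, and 43 in nuclei with Scd1 alone and 33 in their partners.

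**Figure D5:**
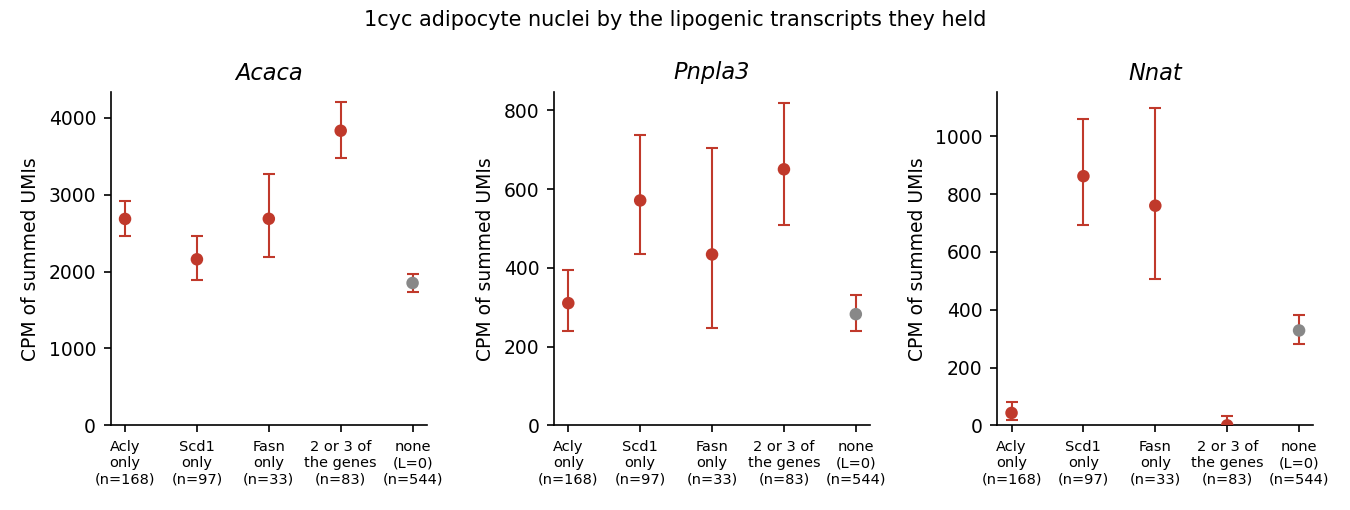
CPM of Acaca, Pnpla3 and Nnat (vertical axes) summed over 1cyc adipocyte nuclei with Acly, Scd1 or Fasn alone, with more than 1 of them (red) and with none (grey), with exact 95% Poisson intervals. Acaca stood at 3832 CPM with more than 1 gene and 1852 CPM with none, and Nnat at 862 CPM with Scd1 alone and 43.0 CPM with Acly alone.

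Set against the 202 TN nuclei with an L of 1 or more, the 1cyc members had 114 of 1325 measured genes with a ratio of 1.5 or more (8.6%), and another 73 were lower by that fold (5.51%). Of these, 56 of the 114 and 19 of the 73 were past the same fold when the L = 0 nuclei of both libraries were compared. That comparison of L = 0 nuclei put 92 of the 1325 genes higher and 26 lower in 1cyc by this fold. The sums were 461647 UMIs in 1cyc members and 241531 in TN members. Acss2 had 507 CPM in 1cyc members and 161 CPM in TN members, a ratio of 3.14 (2.23 to 4.53), and 271 CPM in 1cyc and 217 CPM in TN among L = 0 nuclei, a ratio of 1.25 (1.00 to 1.56). Acaca had 2846 CPM in 1cyc members and 1495 CPM in TN members, a ratio of 1.90 (1.69 to 2.15), against 1.39 (1.27 to 1.51) among L = 0 nuclei. Tkt had 1020 CPM in 1cyc members and 302 CPM in TN members, a ratio of 3.38 (2.63 to 4.38), against 2.05 (1.76 to 2.38) among L = 0 nuclei. For Acss2, Acaca and Tkt the library ratio was larger among members than among L = 0 nuclei. The intervals did not overlap, but they leave out the spread between nuclei. All of these genes were named for a high ratio of members over L = 0 nuclei in 1cyc. That choice by itself favours a larger library ratio among members, so the order is no separate support. The difference between the ratios was not tested.

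Other genes differed between the libraries in members and in L = 0 nuclei, most of them in the same direction. The thioesterase Acot11 had a library ratio of 3.49 among members and 3.24 among L = 0 nuclei, and Abhd15, an adipocyte protein that acts on lipolysis, 2.53 and 2.31. Pnpla3 had 4.13 (2.76 to 6.41) and 2.89 (2.20 to 3.8), Ppp1r3b 3.92 and 2.33, and Plin2 3.28 and 2.12, with overlapping intervals for each of the 3 genes. Irs2 had 1.51 (0.965 to 2.44) among members, an interval that spans 1, and 0.684 (0.491 to 0.942) among L = 0 nuclei. Thrsp had 1.51 and 1.52. Elovl6 had 1.39 among members and 1.66 among L = 0 nuclei. The synthesis list summed had a library ratio of 1.64 (1.53 to 1.75) among members and 1.38 (1.32 to 1.45) among L = 0 nuclei, and the thermogenesis list 1.21 (1.15 to 1.27) and 1.26 (1.22 to 1.31). Lower in 1cyc were Slit3, at 0.215 among members and 0.507 among L = 0 nuclei, and Nnat, at 0.221 and 0.388. Erythroid genes had 28088 UMIs in the TN L = 0 nuclei (31224 CPM) and 146 in the 1cyc L = 0 nuclei (279 CPM), which lowers the CPM of all other genes in that TN sum.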

How the data were processed

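RNA of DAPI-sorted nuclei was captured on the 10X Genomics platform, per the labels' protocols. The authors deposited raw, unnormalized UMI counts for each gene in each barcode. They used mm10 and Cell Ranger 3, per the submitters' processing notes, and version 3.1.0 stands in the matrix, per the file headers. Neither the gene annotation nor the treatment of intronic reads is given in the sources used here. The members, gene lists and tests were chosen with earlier results of these data known.

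Members were paired with L = 0 nuclei greedily, deepest first, to the nearest total UMIs within 10%, each L = 0 nucleus used 1 time. UMIs were summed over each set and scaled to CPM, and a gene was measured when both sums together held 100 UMIs or more. With 1 library per condition there was no test: genes were called by a ratio of at least 1.5. Intervals are at 95% (exact conditional binomial for ratios, exact Poisson for CPM, Clopper-Pearson for shares). Shares after thinning to 500 UMIs are exact expectations. A count of 0 was given the limit that 3 counts allow. Named genes were the 12 highest and 12 lowest by the interval bound nearest to 1, leaving out Acly, Fasn and Scd1; gene models with no name and genes for haemoglobin, ribosomal proteins or mitochondrially encoded RNA were counted only. Measured genes of the lists could also be named; Srebf1 and Idh1, under the limit, were named after their values were seen. Markers of other cell types were summed without the genes that took part in the choice of nuclei.

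Depth was 268 to 4775 UMIs per adipocyte nucleus in 1cyc and 501 to 13942 in TN. GENCODE M21 held 31011 of the 31053 gene identifiers. Python 3.11.15, numpy 2.4.6, scipy 1.17.1, pandas 2.3.3 and scanpy 1.11.5 (Scrublet) were used, with edgeR 4.0.16 for TMM scaling only. The pairing was checked on simulated data. Alternatives covered the pairing, depth, scaling, gene filter, mitochondrial limit, doublets, shared barcodes and thresholds of the choice.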

Additional observations from a re-analysis of the deposited data

Results flagged for a closer look

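Barcodes left out for a mitochondrial share of 5% or more also carried lipogenic transcripts. Of those that met the adipocyte rule in other respects, 278 of 1247 in 1cyc had an Acly, Fasn or Scd1 UMI (22.3%, interval 20 to 24.7%) at a median of 447 UMIs, and 114 of 834 in TN (13.7%, interval 11.4 to 16.2%) at a median of 686 UMIs. Thinned to 500 UMIs, the share was 21.7% in 1cyc (467 barcodes, with 780 shallower ones left out) and 9.04% in TN (834 barcodes, none left out).

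For 3 genes the ratio of nuclei with an L of 1 or more over their partners lay on opposite sides of 1 in the libraries, with neither interval reaching 1. The difference was not tested. In TN the sums for Bzw2 (48 and 25 UMIs) and Sdha (61 and 32 UMIs) were under the limit of 100 UMIs. Bzw2 had 0.561 (0.379 to 0.822) in 1cyc and 1.92 (1.16 to 3.24) in TN. Sdha, a subunit of succinate dehydrogenase, had 0.704 (0.515 to 0.959) in 1cyc and 1.90 (1.22 to 3.02) in TN. Esrrg had 0.922 (0.853 to 0.997) in 1cyc and 1.13 (1.01 to 1.26) in TN.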

How the results depend on the processing

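No paired analysis was possible because each condition is 1 pooled library, and leaving out a replicate was not possible either. Counts of genes past 1.5-fold depend on the limit on low genes, in the order higher and lower: at 50 UMIs 125 and 138 in 1cyc, 92 and 86 in TN, and 304 and 212 for 1cyc members over TN members; at 200 UMIs 8 and 1, 1 and 1, and 47 and 24; with no limit 2077 and 2240, 1816 and 2302, and 2469 and 2628. Median-of-ratios scaling gave 50 and 14 in 1cyc, and put the synthesis list at 1.39 and the thermogenesis list at 1.08. Thinning to 500 UMIs gave 11 and 12 in 1cyc, 37 lower in TN, a synthesis ratio of 1.25 and a member share of 25.3%. A mitochondrial limit of 2% gave 19 and 15 in 1cyc, 5 higher in TN, 66 and 45 between libraries, a thermogenesis ratio of 0.950 and a share of 47.2%, and a limit of 10% gave 15 lower in TN. An L of at least 2 gave 20 higher in 1cyc, 4 higher in TN, 26 lower between libraries and a synthesis ratio of 1.45. Members chosen by Acly gave 67 and 36 between libraries, a synthesis ratio of 1.39 and a thermogenesis ratio of 1.08. Those chosen by Fasn gave 8 and 14 in 1cyc, 3 and 2 in TN, 36 and 9 between libraries, a synthesis ratio of 1.6 and a thermogenesis ratio of 1.08, and turned Gab1 to 1.08. Those chosen by Scd1 gave 15 lower in 1cyc, 2 higher in TN, and 65 and 30 between libraries. The gene limit and the narrower choices measure fewer or more genes or nuclei by construction; the cause of the other shifts was not tested.

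Over 18 alternatives the named higher genes stayed above 1 in 216 of 216 values and the named lower ones under 1 in 215 of 216. These genes were chosen as the extremes of the main comparison, and the alternatives draw on nuclei of the same library. Staying on the same side of 1 was thus largely set by that choice, and the tally is no independent check. Acaca ranged from 1.5 to 2.21, Acss2 from 1.90 to 2.43 and Pnpla3 from 1.35 to 4.91. Choosing members by Fasn put Lyst at 1.05, choosing by Scd1 put Slit3 at 0.898, a mitochondrial limit of 2% put Slit3 at 0.740, and thinning put Bzw2 at 0.952 and Pkn2 at 0.987. The alternative without shared barcodes was chosen after seeing the data. Median depth near 1000 UMIs limits what a nucleus with an L of 0 shows: a transcript not seen is not shown to be absent.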
